A study of Mus musculus with 2 samples.

Results

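The pentose phosphate pathway enzymes described here are 9 genes chosen by name, Tkt, Taldo1, G6pdx, Pgd, Pgls, Rpia, Rpe, H6pd and Prps1. They were measured in mouse skeletal muscle on 2 Affymetrix arrays, 1 for wild-type mice and 1 for Jhdm2a null mice. The gene Jhdm2a, today called Kdm3a, encodes a Jumonji-domain enzyme that removes methyl marks from histone H3. Each array carried total RNA pooled from 3 male mice aged 3 months, and both groups share a strain described as 129 embryonic stem cells with a backcross of 4 generations to C57BL/6. The labels do not say which part of Jhdm2a was disrupted or which muscle was taken. Of the 9 genes, 8 had probe sets with 1 gene symbol, 15 probe sets in all, among 18193 genes with such probe sets. G6pdx had none, so the enzyme that opens the pathway was not analysed here. The genes were chosen with the difference between these arrays known, so every value below is a description of 2 pools. With 1 array per genotype there is no replicate check and no test, and the number of arrays limits the precision.

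The pentose phosphate pathway branches off glycolysis at glucose 6-phosphate and has an oxidative and a non-oxidative branch. The oxidative branch removes a carbon from the sugar and reduces NADP+ to NADPH, the reductant of fatty acid and sterol synthesis and of glutathione recycling. The non-oxidative branch interconverts sugar phosphates of different lengths and ends in ribose 5-phosphate for nucleotides or in intermediates that return to glycolysis. The pathway is known to be very active in fat and liver, which make fatty acids, and to carry little flux in resting skeletal muscle.

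Both branches held enzymes with much lower signal on the array labelled null, and the non-oxidative branch also held an enzyme that was not lower. Tkt, the transketolase, was 17.4-fold lower, Pgd, the 6-phosphogluconate dehydrogenase, 6.66-fold lower, and Taldo1, the transaldolase, 3.03-fold lower. Pgls, the 6-phosphogluconolactonase, was 2.04-fold lower, H6pd, the dehydrogenase of the endoplasmic reticulum, 1.93-fold lower, and Rpe, the ribulose-phosphate epimerase, 1.70-fold lower. Rpia, the ribose 5-phosphate isomerase, and Prps1, a phosphoribosyl pyrophosphate synthetase, were 1.30-fold and 1.33-fold higher. A probe set was counted as measured when its signal passed a floor of 182 on both arrays, and all 8 genes had such a probe set. Of these 8, 4 were at least 2-fold lower, where 2.37% of the 9696 measured genes were. At 1.5-fold the count was 6 of 8 against 6.34% of measured genes, and at 4-fold 2 of 8 against 0.712%. None of the 8 was at least 1.5-fold higher, a size that 3.38% of measured genes reached, or 2-fold higher, which 0.371% reached. The difference between the arrays was in view when the genes were chosen, so these counts are not read as support. The median log2 ratio, null over wild-type, was -0.99 for the 8 genes and 0.04 for all measured genes.

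**Figure D1:**
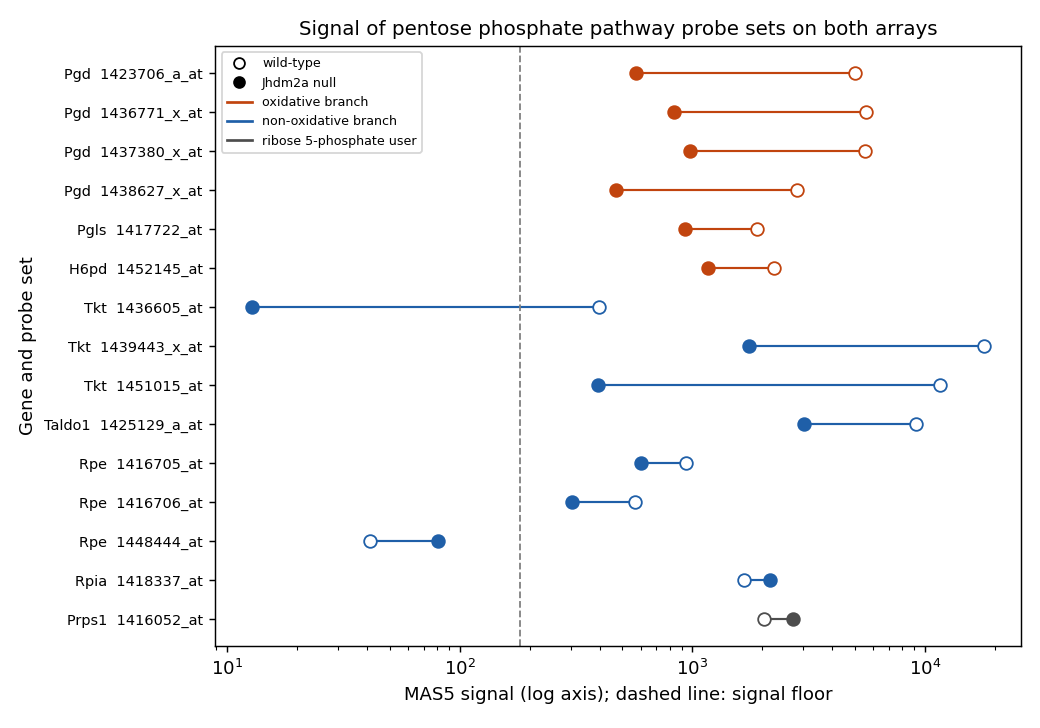
MAS5 signal on a log axis for the 15 probe sets of the pathway genes, open circles for the array labelled wild-type and filled circles for the array labelled null, with the signal floor of 182 dashed. The 4 Pgd probe sets and the 3 Tkt probe sets have the longest shifts to lower signal, Rpia and Prps1 shift slightly to higher signal, and 1 Rpe probe set lies under the floor on both arrays.

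The promoters of the 3 genes with the lowest ratios, Tkt, Pgd and Taldo1, are printed with that of Rpia, the non-oxidative enzyme that was not lower, to show what the upstream sequences share. Each is the 250 bases before the RefSeq transcription start on GRCm38.p6, written 5′ to 3′ along the gene, with GC boxes (GGGCGG) and CCAAT boxes (CCAAT) on either strand in capitals.
Tkt, chr14:30548881-30549130, plus strand: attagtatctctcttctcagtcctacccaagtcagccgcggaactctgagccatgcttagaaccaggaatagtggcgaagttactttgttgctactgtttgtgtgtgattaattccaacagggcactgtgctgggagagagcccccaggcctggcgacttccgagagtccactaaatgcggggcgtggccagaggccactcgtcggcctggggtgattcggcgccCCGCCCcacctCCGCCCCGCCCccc
Pgd, chr4:149166706-149166955, minus strand: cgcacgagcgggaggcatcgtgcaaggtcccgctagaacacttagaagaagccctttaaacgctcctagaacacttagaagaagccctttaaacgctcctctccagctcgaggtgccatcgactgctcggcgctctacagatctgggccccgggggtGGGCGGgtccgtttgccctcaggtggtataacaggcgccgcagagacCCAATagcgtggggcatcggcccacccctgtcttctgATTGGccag
Taldo1, chr7:141391910-141392159, plus strand: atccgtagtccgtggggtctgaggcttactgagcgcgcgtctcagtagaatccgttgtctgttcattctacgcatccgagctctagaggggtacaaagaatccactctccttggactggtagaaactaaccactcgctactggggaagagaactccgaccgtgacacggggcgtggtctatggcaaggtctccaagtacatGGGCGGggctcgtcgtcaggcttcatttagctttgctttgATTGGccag
Rpia, chr6:70792176-70792425, minus strand: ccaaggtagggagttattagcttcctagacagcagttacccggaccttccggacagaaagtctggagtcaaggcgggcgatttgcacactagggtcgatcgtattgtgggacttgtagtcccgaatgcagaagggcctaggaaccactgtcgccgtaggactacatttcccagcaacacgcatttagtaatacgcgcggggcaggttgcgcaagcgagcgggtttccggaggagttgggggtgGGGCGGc

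All 4 printed sequences held a GC box, the element bound by Sp1-type factors. Tkt had 3, at 25, 14 and 9 bases before the start and all on the opposite strand, the last pair overlapping. Pgd had 1 at 93 bases, Taldo1 1 at 49 bases and Rpia 1 at 7 bases before the start. Pgd and Taldo1 each also carried a CCAAT box on the opposite strand 9 bases before the start, and Pgd a second CCAAT box at 46 bases. Over all 9 genes, 8 had a GC box and 4 a CCAAT box, in 10 windows because Pgd has 2 annotated starts. Of all 32851 promoter windows of this length, 32.7% held a GC box and 33.8% a CCAAT box. Neither box separated lower from higher genes, since Rpia and Prps1 held GC boxes too and Prps1 a CCAAT box. Searches on both strands for the E-box CACGTG, the sterol element TCACNCCAC and the TATA box TATAAA found no match in the 10 windows. These motifs occurred in 6.02%, 1.05% and 12.4% of all windows. The antioxidant element core TGACNNNGC, in 10.2% of all windows, was found in that of G6pdx alone among the 9 genes, 57 bases before the start. The nuclear receptor half-site AGGTCA, in 14.0% of all windows, was found in that of H6pd alone, 101 bases before the start. The share of G and C was 59.6% for Tkt, 60.4% for the printed Pgd window, 54.4% for Taldo1 and 57.2% for Rpia, against a median of 52.4%. A match is a stretch of letters and does not show that a factor binds there.

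In the oxidative branch, the array labelled null had the lower signal for all 3 measured enzymes, and the branch median was a log2 ratio of -1.03. Pgls hydrolyses the lactone that glucose 6-phosphate dehydrogenase makes. Its probe set 1417722_at read 1895 on the array labelled wild-type and 927 on that labelled null, a log2 ratio of -1.03, just past 2-fold. Pgd then carries out the decarboxylation that releases carbon dioxide and yields a further NADPH, and it had the lowest ratio of the branch. Its probe set 1423706_a_at read 4998 and 571, and 1436771_x_at read 5595 and 835. The probe set 1437380_x_at read 5502 and 978, and 1438627_x_at read 2806 and 470. All 4 probe sets were therefore lower on the array labelled null, with log2 ratios of -3.13, -2.74, -2.49 and -2.58. Their mean was -2.74 ± 0.28 (SD of 4 probe sets), so the signal on the array labelled null was 15.0% of that on the other. The 3 sets with the suffix x hold probes that can match other transcripts, and without them Pgd had -3.13. The 4 sets report on 1 gene in the same RNA and are not replicates of a genotype.

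H6pd differs from the other oxidative enzymes in its place and its product's use. It works inside the endoplasmic reticulum, where it carries out the first steps of the pathway and supplies NADPH to the steroid reductase encoded by Hsd11b1. Its probe set 1452145_at read 2256 on the array labelled wild-type and 1171 on that labelled null, a log2 ratio of -0.95, just short of 2-fold. Loess scaling put it at -1.01, past that fold. Hsd11b1 itself read 3385 and 872, a log2 ratio of -1.96. G6pd2, an autosomal relative of G6pdx, read 4.8 and 2.6, far below the floor on both arrays, and gave no ratio.

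The non-oxidative branch held both the lowest and 1 of the highest ratios of the pathway. Tkt moves carbon pairs between sugar phosphates and links the pathway to glycolysis. Its probe set 1439443_x_at read 17932 on the array labelled wild-type and 1752.5 on that labelled null, and 1451015_at read 11623 and 392. The third, 1436605_at, read 396 and 12.8, the latter under the floor, which made it at least 2.18-fold lower. All 3 were lower, but the measured pair differed in size, with 9.77% of the signal on the array labelled wild-type left in 1439443_x_at and 3.37% in 1451015_at. Their log2 ratios were -3.36 and -4.89 and their mean -4.12 ± 1.08 (SD of 2 probe sets). The SD within a gene over 3719 genes with several measured probe sets was 0.29, so the spread between the Tkt sets was wide. At the smaller of these differences Tkt was 10.2-fold lower, and at the larger 29.6-fold. The smaller came from the set with the suffix x, whose probes can match other transcripts. Tkt had rank 9 from the lowest of 9696 measured genes, Pgd rank 42 and Taldo1 rank 109.

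Taldo1 moves larger carbon units between the same sugar phosphates, and it was lower by less than Tkt. Its 1 probe set, 1425129_a_at, read 9147 on the array labelled wild-type and 3020 on that labelled null, a log2 ratio of -1.60 that leaves 33.0% of the signal. Rpe interconverts ribulose and xylulose 5-phosphate. Its probe set 1416705_at read 940 and 604 and 1416706_at read 566 and 303, log2 ratios of -0.64 and -0.90 with a mean of -0.77 ± 0.19 (SD of 2 probe sets). The third set, 1448444_at, read 41.0 and 81.1, under the floor on both arrays, and with all 3 included the mean was -0.18. The size of the Rpe difference therefore rests on the brighter pair.

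Rpia converts ribulose 5-phosphate to ribose 5-phosphate and was the 1 member of the branch with a higher signal on the array labelled null. The single set, 1418337_at, read 1669 on the array labelled wild-type and 2165 on that labelled null, a log2 ratio of 0.38. It had rank 8532 from the lowest of 9696 measured genes, and Prps1 rank 8751. Rpia lies on chromosome 6 near the targeted gene, with 14 protein-coding genes between it and Kdm3a in the RefSeq order. Of these, 7 were measured, with log2 ratios from -0.32 for Eif2ak3 to 0.56 for Smyd1. None of the 7 differed by 1.5-fold, and 3 were above 0. Kdm3a itself read 406 and 488 on 1426810_at, a log2 ratio of 0.26, so this probe set does not separate the genotypes in the labelled direction. Its place relative to the disruption is not known here, and a probe outside the deleted sequence would check nothing. DNA around a targeted gene can stay of 129 origin after few backcrosses, and its part in the Rpia value was not tested.

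Prps1 uses ribose 5-phosphate to make phosphoribosyl pyrophosphate (PRPP), the sugar donor of nucleotide synthesis, and stands outside both branches. Its probe set 1416052_at read 2026 on the array labelled wild-type and 2698 on that labelled null, a log2 ratio of 0.41. A further set, 1448192_s_at, is annotated to both Prps1 and its relative Prps1l3 and read 628 and 1092. It entered no gene value, and it too was higher on the array labelled null. Prps2, the second synthetase, read 368 and 428 on its 1 measured probe set, a log2 ratio of 0.22 that turned to -0.26 with a lower floor. Tktl1 and Tktl2, relatives of Tkt, lay under the floor on both arrays in all of their probe sets.

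Set side by side, the branches did not differ by more than the spread within them. The non-oxidative branch had a median log2 ratio of -1.18 over 4 genes, from -4.12 for Tkt to 0.38 for Rpia. The oxidative branch had -1.03 over 3 genes, from -2.74 for Pgd to -0.95 for H6pd. The oxidative median was higher by 0.15, while the oxidative mean of -1.57 ± 1.01 (SD over 3 genes) was lower than the non-oxidative mean of -1.53 ± 1.91 (SD over 4 genes). Each branch had 2 genes at least 2-fold lower and 3 at least 1.5-fold lower. Including the dim probe sets turned the difference of medians to -0.14, so no order of the branches is read from these arrays. Tkt and Rpia, which belong to the same branch, had ranks 9 and 8532 from the lowest of all measured genes.

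**Figure D2:**
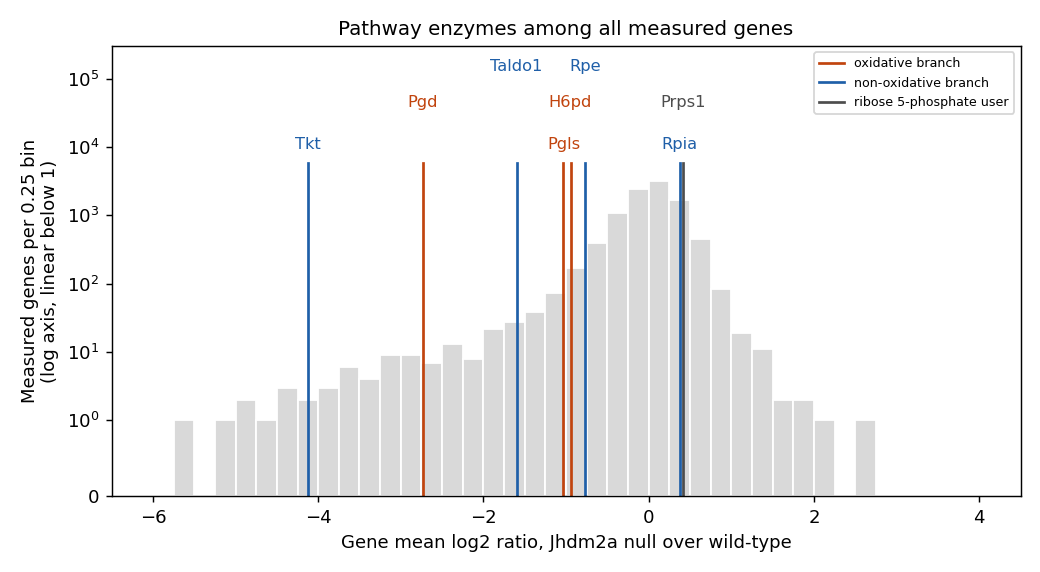
Number of measured genes per bin of log2 ratio, null over wild-type, on a log axis that is linear below 1, with a vertical line for each pathway gene coloured by branch. The median of all genes was 0.04; Tkt at -4.12 and Pgd at -2.74 stand in the sparse left tail, and Rpia and Prps1 stand on the right shoulder.

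The genes whose ratios lay nearest to the lower members included fat genes. With 2 arrays a pattern is a single ratio, so likeness here is the absolute difference in log2 ratio among measured genes. Nearest to Tkt were Cidec, a lipid droplet protein of adipocytes, at -4.02, Agpat2, an acyltransferase of triglyceride synthesis, at -4.27, and the apolipoprotein gene Apoc1 at -4.36. Nearest to Pgd were Dgat1, which completes triglycerides, at -2.72, Sycp3 at -2.76 and the lipid droplet coat Plin2 at -2.76. Nearest to Taldo1 were Slc12a7, Bscl2, which encodes seipin of lipid droplet formation, and Mme, all at -1.60 or -1.59. Nearest to Pgls were Echdc1, Chst11 and Tex264, all at -1.03. Nearness of 1 ratio is weak likeness, and nothing is read from it.

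Genes listed as markers of fat and liver cells mostly differed between the arrays in the same direction as the lower enzymes. Of all measured genes, 6.34% were at least 1.5-fold lower and 2.37% at least 2-fold lower. Of 16 adipocyte markers with a probe set, 13 were measured and all 13 were lower, 12 by at least 1.5-fold, with a median log2 ratio of -3.14. With the brightest probe set of each gene 11 of 13 were lower, and with the floor at the 75th percentile 8 of 9. The median of this list ranged from -3.21 to -2.98 over the alternatives. Agpat2 and Cidec led at -4.27 and -4.02 and Adig had -3.72. Pparg, Acvr1c and Lep were under the floor on the array labelled null, Pparg at least 5.40-fold lower, and no adipocyte marker had a signal of 0. The summed signal of this list was 198690 on the array labelled wild-type and 92721 on the array labelled null. Bright genes weigh most in this sum, among them Car3 and Lpl, whose highest signals were not lower. These were 24357 and 26112 for Car3 and 15835 and 16439 for Lpl. Of 12 brown adipocyte markers, 9 were measured and 5 were at least 1.5-fold lower, led by Ucp1 at -5.71, Cidea at -5.21 and Acot11 at -2.31, and 3 more had bounds, all lower. The list median was -0.82, from -2.46 to -0.47 over the alternatives, and Cox7a1 and Cox8b, which muscle also expresses, had 0.03 and -0.13. The summed signal of the list was 80375 and 37260. Of 18 hepatocyte markers, 7 were measured, all 7 at least 2-fold lower with a median of -3.60, and 5 more had bounds, all lower. The other 6 were too dim for either. Of these, Ahsg, Fgb, Fgg, Tat and Ass1 lay under the floor on both arrays, and Cps1 read 271 on the array labelled wild-type. Whether liver cells were present was not tested. With no floor, 17 of the 18 were lower and 1 was at least 1.5-fold higher. Pygl, Pck1 and Apoc1 led this list at -4.81, -4.54 and -4.36, and its summed signal was 60918 and 5371. Apoc1 of this list and Agpat2 and Cidec of the adipocyte list are the genes that lay nearest to Tkt.

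Against these lists, Tkt was lower than 12 of the 13 adipocyte markers and Pgd than 4 of the 13. Pgls, H6pd and Rpe lay above 11 of the 13, and Rpia and Prps1 above all 13. Skeletal muscle markers, which check the labelled tissue, differed little, with 16 of 16 measured, 0 past 1.5-fold and a median of 0.17 that ranged from 0.05 to 0.18 over the alternatives. Mylpf, Acta1 and Tnni2 led the muscle list at 0.26, 0.25 and 0.24, and its summed signal was 347890 and 391543. All 6 lower enzymes lay below every muscle marker, and Rpia and Prps1 lay above every one. In a pooled bulk sample, fewer cells of a type and less RNA per cell cannot be told apart. The part of fat or liver cells in the enzyme values was not tested.

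**Figure D3:**
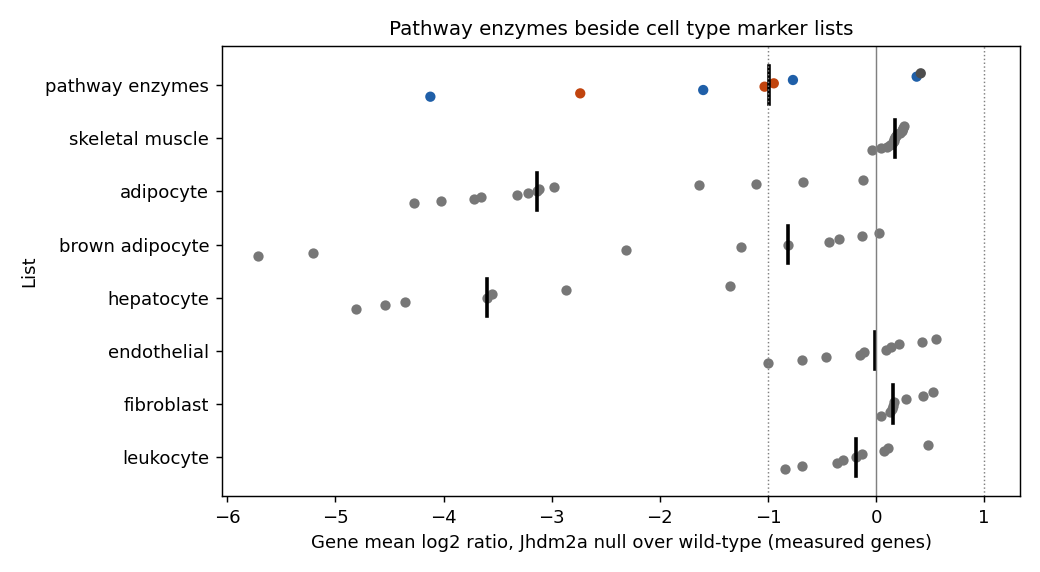
Log2 ratio, null over wild-type, of the 8 pathway enzymes (coloured by branch as elsewhere) and of the measured genes of 7 marker lists, 1 point per gene, with black bars at list medians and dotted lines at 2-fold. The enzymes spread from the range of the adipocyte and hepatocyte lists, with medians of -3.14 and -3.60, to just above the skeletal muscle list, with a median of 0.17.

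Other cell types showed smaller or opposite differences. Of all measured genes, 6.34% were at least 1.5-fold lower and 3.38% at least 1.5-fold higher. Of 10 endothelial markers 2 were at least 1.5-fold lower, Kdr with signals of 712 and 356 and Cldn5 at -0.69, with Emcn at 0.55 and a list median of -0.01 that turned sign in some alternatives. All 8 fibroblast markers were above 0, with Lum, Col3a1 and Fap at 0.52, 0.43 and 0.28 and a median of 0.16. Of 9 measured leukocyte markers 2 were at least 1.5-fold lower, Ighm at -0.84 and Cd163 at -0.68, with Ptprc at 0.48 and a median of -0.18. Among neutrophil markers Ngp had 2.63 and Mmp9 0.13, and 5 more had bounds, all higher, with S100a8 at least 12.9-fold and S100a9 at least 11.9-fold higher. The summed neutrophil signal was 1447 on the array labelled wild-type and 9360 on the array labelled null. Of 7 erythroid markers with a probe set, the 3 measured, Slc4a1, Alas2 and Bpgm, had 1.60, 0.70 and 0.56. The other 4 were too dim for a ratio or a bound. With no floor, 3 of the 7 were below 0 and 3 were at least 1.5-fold higher. Leukocytes use the oxidative branch for their oxidative burst, and the part of blood cells in the enzyme values was not tested.

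Other genes that make NADPH, or the NADP+ that is reduced to it, were split. Of 12 measured, 3 were at least 1.5-fold lower, where 6.34% of all measured genes were, and 0 higher. The list median was 0.01, with its sign turned in some alternatives. Aldh1l1, a folate dehydrogenase abundant in liver, had -1.78, and Idh1, the cytosolic isocitrate dehydrogenase, -1.48 ± 0.36 (SD of 2 probe sets). Without probe sets that share probes Idh1 had no value, and 2 of 11 genes were lower and 1 higher by 1.5-fold. Nadk, the kinase that makes cytosolic NADP+ from NAD+, had -0.94 ± 0.18 (SD of 2 probe sets). Among 10 measured genes listed as users of NADPH, 2 were at least 1.5-fold lower, Fasn, the fatty acid synthase, at -3.77 and Hsd11b1 at -1.96, and 0 were higher. The list also held Cyb5r3, a reductase that mainly uses NADH, at -0.35 ± 0.32 (SD of 3 probe sets). It entered the counts and medians given here. The list median was -0.34. With the brightest probe set of each gene, 4 of 10 passed that fold and their list's median was -0.50. With the floor at the 75th percentile these were 3 of 9 and -0.53.

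Genes of nucleotide synthesis and of glycolysis held some members that were lower. Of 18 measured genes of purine, pyrimidine and NAD synthesis from PRPP, 3 were at least 1.5-fold lower, where 6.34% of all measured genes were, and 0 higher. The list median of 0.02 turned sign in some alternatives, and with the floor at the 75th percentile 1 of 16 was lower by that fold. Cad, which starts pyrimidine synthesis, had -0.81 ± 0.66 (SD of 2 probe sets) but -0.34 from its brightest probe set. Impdh1, of guanine nucleotide synthesis, had -0.76, and Naprt, of NAD synthesis, -0.63. Of 7 measured glycolysis genes that share intermediates with the pathway, 1 was at least 1.5-fold lower, the liver-type phosphofructokinase Pfkl at -3.31 ± 0.59 (SD of 2 probe sets), or -2.25 with a lower floor. The platelet-type phosphofructokinase Pfkp was at least 6.22-fold lower, and for the fructose bisphosphatase Fbp1 the bound was 2.06-fold. The list median of 0.04 turned to -0.31 with the floor at the 50th percentile, where 3 of 9 genes were at least 1.5-fold lower. Of 6 measured neighbours of the pathway, Idnk, a gluconokinase, had -0.71, which turned to 0.38 when dim probe sets were included. None of the 6 was 1.5-fold higher, and their median was -0.02, with its sign turned in some alternatives.

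Regulators known to act on pathway genes had ratios nearer 0 than Tkt, Pgd and Taldo1, but Maff and Srebf1 were lower than Rpe at -0.77. Srebf1, which encodes the sterol-regulated factor that drives lipogenic genes, had a log2 ratio of -0.79. Mlxipl, which encodes the carbohydrate-responsive factor ChREBP, had -0.49, and Nfe2l2, which encodes the antioxidant regulator NRF2, had 0.18. Maff, a small partner of NRF2, had -0.91. Of 13 regulators measured, 2 were at least 1.5-fold lower, Maff and Srebf1, and 0 higher, with a median of -0.11. Of all measured genes, 6.34% were at least 1.5-fold lower and 3.38% at least 1.5-fold higher, so nothing is read from the regulator count.

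The measured genes adjoining the 4 lowest enzymes on their chromosomes did not have ratios as low. Only 2.37% of measured genes were at least 2-fold lower, so adjoining genes could hardly be as low, and nothing is read from this comparison. Beside Tkt, Dcp1a had 0.50 and Prkcd -0.62, itself at least 1.5-fold lower, as 6.34% of measured genes were. Beside Taldo1, Eps8l2 had 0.22 and Gatd1 -0.52. Kif1b beside Pgd had -0.06 and Slc27a1 beside Pgls -0.05. The adjoining genes were taken from the RefSeq gene order and were chosen after the enzyme values were known.

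The direction of every one of the 8 enzymes was the same in all 11 alternative ways of processing the values. H6pd, Pgls, Taldo1, Rpia and Prps1 each have 1 probe set, which lies above every floor. For them only the scalings and the pseudocount could change the value, so their narrow ranges were largely fixed in advance. Tkt had the widest range, from -4.89 without probe sets that share probes to -3.12 with dim signals set to the floor. Pgd ranged from -3.13 to -2.49, Taldo1 from -1.70 to -1.58, and Pgls from -1.08 to -0.99. Rpe ranged from -0.81 to -0.18, Rpia from 0.31 to 0.38, and Prps1 from 0.34 to 0.41.

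**Figure D4:**
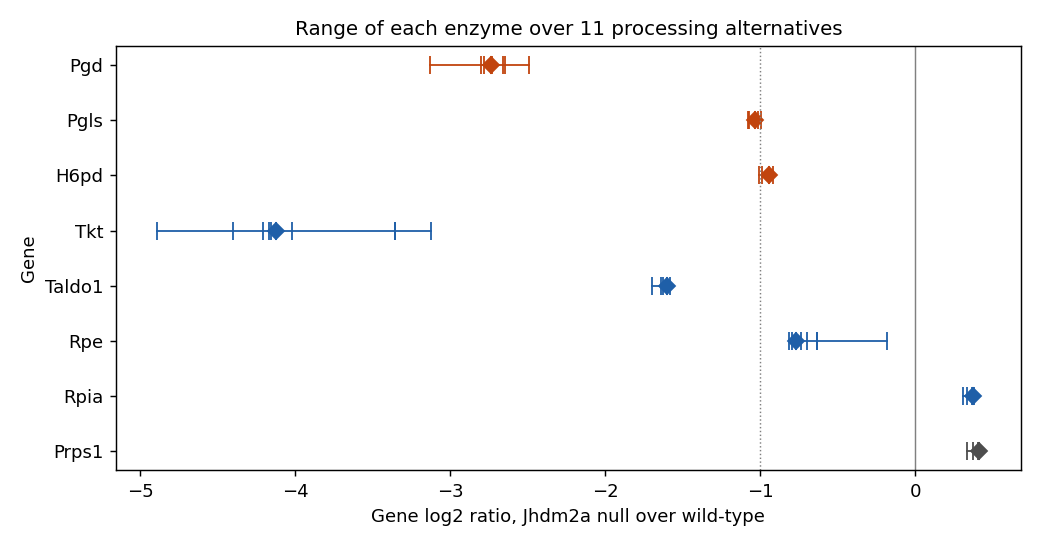
Log2 ratio, null over wild-type, of each pathway enzyme as reported (diamond) and under each of 11 processing alternatives (ticks), with a dotted line at 2-fold lower. Tkt spans -4.89 to -3.12 and Rpe -0.81 to -0.18. Taldo1, H6pd, Rpia and Prps1 stay close to their reported values, as most alternatives cannot move a gene with 1 bright probe set.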

How the data were processed

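Total RNA was measured on 2 arrays, 1 per genotype. The authors deposited linear MAS5 intensity values, 1 per probe set, as the submitters' processing notes and the values show. No version of MAS5 is stated. The 2% trimmed mean was 500.003 for each array, so no rescaling was applied. The 64 control probe sets were left out. The floor, 182, was the 60th percentile of 45037 other probe sets of both arrays. Probe sets above it on both arrays count as measured. Each gene was given the mean log2 ratio over those with 1 symbol. Where a gene passed the floor on 1 array alone and reached 2 times that level there, a bound was given.

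The 9 genes and the 15 gene lists, 6 of the pathway and 9 of cell types, were chosen with earlier results of these data known. Named are the 9 genes, up to 4 of each pathway list past 1.5-fold or a bound, up to 3 of each marker list by absolute ratio, sequence relatives, 3 regulators, Kdm3a and the 3 genes nearest in ratio to each enzyme past 2-fold. Several genes named outside this rule were chosen after their values were seen. They are Pparg, Acvr1c, Lep, Car3, Lpl, Ahsg, Fgb, Fgg, Tat, Ass1, Cps1, Cox7a1, Cox8b, S100a8, S100a9 and Cyb5r3. The genes adjoining the enzymes or lying near Kdm3a were chosen likewise. No test was run, since 1 array per group leaves 0 residual degrees of freedom. Alternatives are quantile, median and loess (span 0.4) scaling, other floors or none, dim signals set to the floor, the brightest or the median probe set, no probe sets with the suffix s or x, and a pseudocount of 50. Python 3.11.15, pandas 2.3.3 and statsmodels 0.14.6 were used, after a check of the steps on simulated data. Promoters and gene order are RefSeq's on GRCm38.p6, and the 9 genes all matched. The files name no build.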

Additional observations from a re-analysis of the deposited data

How the results depend on the processing

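Over 11 alternatives, each of the 8 enzymes kept its direction, though most alternatives could not move the enzymes with 1 probe set. The count of enzymes at least 2-fold lower ranged from 3 with a pseudocount of 50, where Pgls had -0.99, to 5 with loess, where H6pd had -1.01. The count at 1.5-fold was 5 with no floor and 6 otherwise. The oxidative median ranged from -1.08 to -0.99. With no floor, the non-oxidative median was -0.89 in place of -1.18 and the difference of medians -0.14 in place of 0.15, because the dim Rpe probe set then entered its mean. With no floor Idnk also turned from -0.71 to 0.38, because its second, dim probe set then entered its mean. With no floor, 1669 genes were at least 2-fold lower and 1004 higher, against 230 and 36, as many dim probe sets entered. With the floor at the 75th percentile, 113 were lower and 11 higher of 6565 genes. No paired analysis was possible because each genotype has 1 array. The gap between its 2 measured probe sets limits Tkt most, a dim probe set limits Rpe most, and no value covers variation between mice.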
